A study of Coturnix japonica with 54 samples.

Results

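The 9 genes described belong to enzyme families that write or remove marks on chromatin. They are the DNA methyltransferases DNMT1, DNMT3A and DNMT3B, the 5-methylcytosine oxidases TET2 and TET3, and the histone deacetylases HDAC2, HDAC3, HDAC4 and HDAC9. They were chosen by name, and all 9 were present among the 19916 genes of the table of CPM (counts scaled to the same total in each library). Levels of these transcripts overlapped between all 9 photoperiod groups for every gene with enough reads to test. None of these genes passed the test in any comparison of that table. Both hold for nearly all genes. Over all tested genes, 0.246% of pairs of groups had ranges apart, and at most 0.0363% of genes were called in a comparison. The number of reads behind each gene differed widely, from 2 reads of DNMT3B to 30241 of HDAC4. The size of a change that could have been seen also differed among the tested genes, but did not follow reads alone. The confidence interval of a difference between groups reached a median of 0.54 either side on the log2 scale for HDAC4 and 1.32 for TET2. It reached 1.00 for HDAC2, with 1113 reads, and 1.17 for DNMT3A, with 2201.

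DNA methyltransferases place a methyl group on cytosine, mostly at CG sites. DNMT1 copies the pattern onto the new strand after replication, while DNMT3A and DNMT3B set it on unmethylated DNA. TET enzymes oxidise the methyl group, which opens a route to its removal. Histone deacetylases are a family named for stripping acetyl groups from histone tails. HDAC2 and HDAC3 are class I enzymes of nuclear corepressor complexes. HDAC4 and HDAC9 are class IIa proteins that shuttle between nucleus and cytoplasm and bind MEF2 transcription factors. In the hypothalamus of seasonal mammals, DNA methylation and these enzymes have been studied as a means by which day length could leave a lasting trace on gene expression, for example at the gene of the thyroid hormone deiodinase DIO3.

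RNA came from samples labelled as mediobasal hypothalamus of 54 male Japanese quail (Coturnix japonica), 1 library per bird, 6 birds in each of 9 groups, sequenced as cDNA on Oxford Nanopore flow cells. All birds began on 16 h of light a day, and day length was then stepped down to 8 h and back up, with 2 weeks at each step. In step order the groups were 16La, 14La, 12La and 10La, then 8L, then 10Lv, 12Lv, 14Lv and 16Lv, where the number is the hours of light, and a and v were read as the declining and rising arms. The groups are successive times in 1 sequence of day lengths, and no birds held on constant days were analysed here. Day length and time in the study therefore cannot be told apart within an arm. Each rising group also came later than the declining group at the same day length. In those comparisons, 16Lv minus 16La among them, arm and time in the study cannot be told apart either. The labels give no age, strain, batch or pairing.

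The CPM table held 251382 to 1895615 reads per library (median 938816). In every group 1 library was far shallower than the rest: these 9 held 251382 to 379260 reads, and the next lowest 626001. By the running numbers in the titles the shallow library was the third of its group in 8 groups and the second in 16La, and the labels give no reason. Replicates 3 and 6 of 16Lv differed by less than sampling noise and were counted as 1 sample, which left 53 libraries and n = 5 in that group. All 8 neuronal markers checked were detected, with a summed level of 20761 to 52243 CPM, as were 7 of 8 hypothalamic peptides (171 to 585 CPM). Transcripts of the 6 pituitary markers were also present, at a summed level of 14.1 to 316 CPM. Group means of that sum ran from 78.8 ± 58.3 CPM in 12La to 226.9 ± 55.2 in 14Lv (SD, n = 6 each). Only CGA among the 6 had enough reads to test, at 142.8 ± 70.1 CPM (SD, n = 53). Its limma unadjusted p among the 9 groups was 0.0078 (adjusted p = 0.998).

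A gene was tested if it had at least 10 CPM in at least 6 libraries. DNMT3A, TET2, HDAC2, HDAC4 and HDAC9 met this and are 5 of the 9 genes, while DNMT1, DNMT3B, TET3 and HDAC3 did not. Tests were made with limma on log2(CPM + 1), fitted over all 8268 genes that met the same rule, with Benjamini-Hochberg adjusted p-values within each comparison.

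DNMT3A, the de novo methyltransferase of mature neurons, rested on 2201 reads and averaged 44.2 ± 20.02 CPM (SD, n = 53). In the declining arm its lowest, median and highest levels were 23.9, 50.1 and 72.5 CPM in 16La, 39.8, 45.9 and 58.9 in 14La, 17.1, 30.03 and 57.6 in 12La, and 6.54, 50.9 and 94.8 in 10La. At 8L they were 28.4, 44.0 and 58.3 CPM. In the rising arm they were 19.2, 54.1 and 95.7 CPM in 10Lv, 0, 42.5 and 64.9 in 12Lv, 12.2, 36.8 and 71.6 in 14Lv, and 20.5, 37.8 and 63.9 in 16Lv. The group means ran from 34.2 ± 15.4 CPM in 12La to 54.6 ± 29.1 in 10Lv (SD, n = 6 each), and every group overlapped every other. The library at 0 was 12Lv replicate 3, 1 of the 9 shallow libraries, with 345338 reads in all. The largest log2 difference between neighbouring steps was 12Lv minus 10Lv, at -0.89 (SE 0.58, limma adjusted p = 0.998). That value rests on the library at 0: without it the log2 difference was 0.04. Between 8L and 16La the log2 difference was -0.16 (SE 0.58), with a 95% interval from a fold of 0.397 to 2.01. It ran from -0.37 without 16La replicate 2 to -0.01 without 16La replicate 4.

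The row named DNMT1, the maintenance methyltransferase, had 69 reads in 38 of 53 libraries. The annotation behind the table is not given in the sources used here and the quail RefSeq table does not hold that name, so the row's identity rests on its name alone. Its reads were unevenly spread: 15 fell in 10Lv, where all 6 libraries had at least 1, against 4 in 8L and 2 in 16Lv. As CPM of a group's summed reads this was 3.14 in 10Lv (95% exact Poisson interval 1.76 to 5.18), 0.691 in 8L (0.188 to 1.77) and 0.497 in 16Lv (0.0602 to 1.80), intervals that cover counting error only. By library, 10Lv spanned 0.943 to 10.3 CPM (median 3.51) and 8L spanned 0 to 2.26 (median 0.389), so the groups overlapped. The highest value, 10.3 CPM, came from 3 reads in a library of 292502. When the filter on low values was dropped, the log2 difference of 10Lv minus 8L was 1.48 (SE 0.44, limma unadjusted p = 0.0015, adjusted p = 0.888). At an unadjusted p under 0.05, 4.43% of all genes were called in that comparison. Without a filter none of the 9 genes was called in the test among the 9 groups, where 0.0251% of 19916 genes were. Over the 20 comparisons without a filter, the smallest adjusted p of any of the 9 genes was 0.760 (limma).

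Transcripts of dividing cells had their highest and lowest group means in the same groups as DNMT1. The 8 markers of that list were all detected somewhere, from 8 reads of MCM3 to 323 of PCNA. Their summed level was 12.8 to 33.7 CPM in 10Lv (median 17.97), 5.31 to 21.8 in 8L (median 11.4) and 3.85 to 11.3 in 16Lv (median 9.74). The mean of 10Lv was 21.1 ± 8.97 CPM, with 14Lv at 17.9 ± 7.34 and 12La at 17.4 ± 10.9 (SD, n = 6 each). The highest library, at 37.0 CPM, was in 12La. Only PCNA met the filter (limma unadjusted p = 0.817 among the 9 groups, adjusted p = 0.998). A highest mean in 10Lv was not particular to this list. The summed neuronal markers were also highest in 10Lv (38363 ± 6219 CPM), though lowest in 14La (31310 ± 5876; SD, n = 6 each). The part of dividing cells in the DNMT1 values was not tested. In whole tissue, fewer cells of a type and less RNA per cell cannot be told apart.

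DNMT3B, the other de novo enzyme, best known from early embryos, had 1 read in 14La replicate 5 and 1 in 8L replicate 6. The other 51 libraries had none. Over all 48228665 reads this is 0.0415 CPM (95% exact Poisson interval 0.00502 to 0.1498). In the remaining 7 groups, 3 reads of the summed total would be 0.494 to 0.746 CPM, and the upper 95% bounds of the 9 groups were 0.607 to 0.962 CPM. These bounds cover counting error within a group only and are not a limit of detection for a difference between groups.

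**Figure D1:**
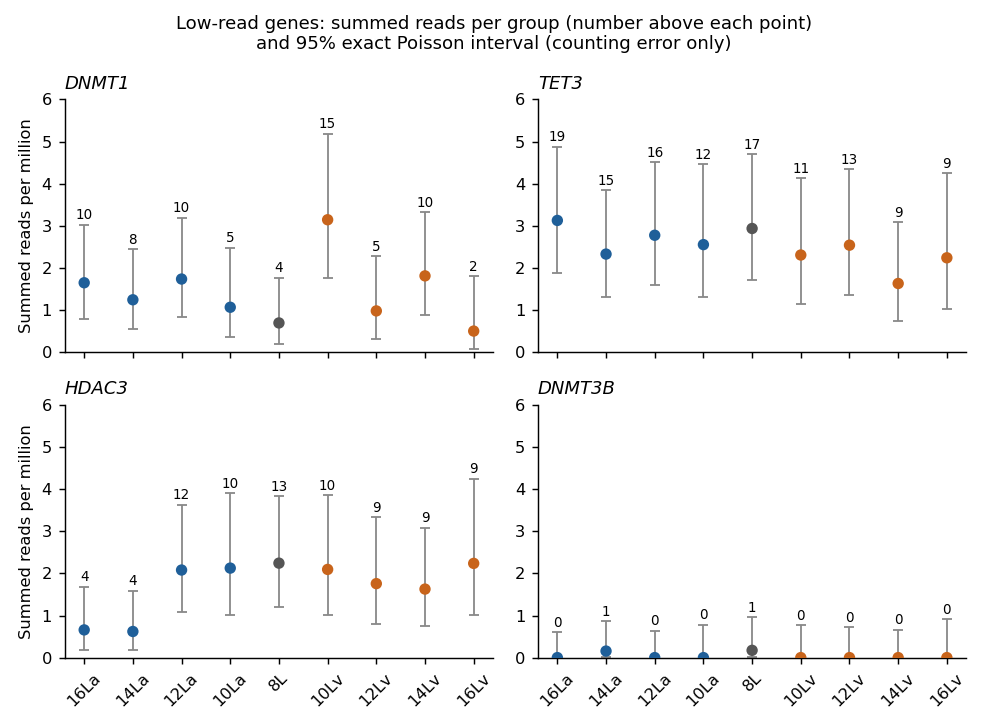
CPM of the summed reads in each photoperiod group, in step order, for DNMT1, TET3, HDAC3 and DNMT3B, with 95% exact Poisson intervals (bars, counting error only) and the number of reads above each point. DNMT1 has its highest point in 10Lv with 15 reads, HDAC3 has 4 reads each in 16La and 14La against 9 to 13 elsewhere, and the intervals of TET3 overlap throughout.

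TET2, an oxidase of 5-methylcytosine, had 484 reads and averaged 9.69 ± 5.65 CPM (SD, n = 53), which is about 10 reads in a typical library. Lowest, median and highest levels in the declining arm were 0, 9.69 and 12.6 CPM in 16La, 0, 12.1 and 15.7 in 14La, 2.83, 8.89 and 20.2 in 12La, and 0, 11.3 and 15 in 10La. At 8L, the group with the highest mean, they were 7.97, 12.8 and 19.2 CPM. In the rising arm they were 0, 9.67 and 17.6 CPM in 10Lv, 4.37, 8.02 and 11.8 in 12Lv, 3.50, 8.19 and 26.03 in 14Lv, and 2.92, 5.14 and 19.2 in 16Lv. A library without a TET2 read occurred in 4 groups, in 16La, 14La and 10La the shallow one, and all groups overlapped. The log2 difference of 8L minus 16La was 1.10 (SE 0.66, limma adjusted p = 0.999). It was 0.57 without 16La replicate 2, which had no TET2 read among 251382.

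TET3, the family member best known for acting on the paternal genome after fertilisation, had 121 reads in 48 libraries. It averaged 2.52 ± 1.71 CPM (SD, n = 53), and group means lay between 1.89 ± 0.957 CPM in 14Lv and 3.27 ± 2.14 in 12La (SD, n = 6 each). Every group held libraries in the range from 1 to 3 CPM. In the quail annotation TET3 overlaps LOC107323692, and the sources used here do not say whether counting used strand, so reads of the pair could not be separated.

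HDAC2, a class I deacetylase of the Sin3, NuRD and CoREST complexes, had 1113 reads and averaged 22.4 ± 9.56 CPM (SD, n = 53). Lowest, median and highest levels were 11.9, 18.4 and 25.7 CPM in 16La, 10.0, 13.9 and 35.4 in 14La, 3.42, 27.8 and 48.7 in 12La, and 0, 18.1 and 27.9 in 10La. At 8L they were 15.9, 22.5 and 31.7 CPM. In the rising arm they were 16.6, 27.3 and 35.5 CPM in 10Lv, 12.2, 30.5 and 37.6 in 12Lv, 12.2, 19.2 and 31.8 in 14Lv, and 11.6, 17.5 and 22.5 in 16Lv. The highest mean was 28.5 ± 8.90 CPM in 12Lv and the lowest 17.3 ± 10.2 in 10La (SD, n = 6 each), with overlap between all groups. At 10 h of light the rising arm lay above the declining arm by a log2 difference of 1.11 (SE 0.50, limma unadjusted p = 0.0301, adjusted p = 0.954). That difference was 0.38 without 10La replicate 1, which had no HDAC2 read among 918099, not 1 of the shallow libraries. The same library bears on the log2 difference of 8L minus 10La, 0.99 with it and 0.27 without it (SE 0.50, limma adjusted p = 0.999 with it).

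HDAC3, the catalytic subunit of the NCoR and SMRT corepressor complexes, had 80 reads in 35 of 53 libraries. It was read in 2 of 6 libraries of 16La and 1 of 6 of 14La, and in 6 of 6 of both 12La and 10Lv. As CPM of the summed reads, HDAC3 was at 0.658 in 16La (95% exact Poisson interval 0.179 to 1.69), 0.620 in 14La (0.169 to 1.59) and 2.08 in 12La (1.075 to 3.63). In 16Lv, the return to 16 h of light, it was at 2.24 (1.02 to 4.25), with reads in 4 of 5 libraries. The log2 difference of 12La minus 14La was 1.23 when the filter was dropped (SE 0.50, limma unadjusted p = 0.0169, adjusted p = 0.942).

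HDAC4, a class IIa deacetylase abundant in brain, was the most deeply read of the 9 genes, with 30241 reads and 75 to 1399 in a library. It averaged 634.9 ± 232 CPM (SD, n = 53). Lowest, median and highest levels were 298, 441 and 1387 CPM in 16La, 526, 718 and 1055 in 14La, 299, 536 and 759 in 12La, and 345, 557 and 695 in 10La. At 8L they were 303, 539 and 836 CPM. In the rising arm they were 498, 783 and 1215 CPM in 10Lv, 397, 597 and 784 in 12Lv, 461, 647 and 1045 in 14Lv, and 532, 664 and 858 in 16Lv. All groups overlapped, and the highest single value was in 16La, whose other 5 libraries lay at 298 to 535 CPM.

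The group means of HDAC4 ran from 531.8 ± 167 CPM in 12La to 809.7 ± 313 in 10Lv (SD, n = 6 each). The log2 difference of 16Lv minus 16La, both at 16 h of light, was 0.51 (SE 0.28), and its limma adjusted p of 0.858 was the smallest of any tested member in any comparison. Without 16La replicate 1, the library at 1387 CPM, that difference was 0.77, and without 16La replicate 2, the shallow one, it was 0.33. The log2 difference of 14La minus 16La was 0.55 (SE 0.27, limma unadjusted p = 0.0465, adjusted p = 0.999), which became 0.83 without replicate 1 of 16La and 0.37 without its replicate 2. Over the 8L minus 16La comparison the log2 difference was 0.08 (SE 0.27), with a 95% interval from a fold of 0.727 to 1.54.

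HDAC9, also class IIa, had 5051 reads and averaged 102.3 ± 50.4 CPM (SD, n = 53). Lowest, median and highest levels were 50.5, 102.8 and 290.04 CPM in 16La, 29, 124 and 155 in 14La, 17, 86.5 and 141 in 12La, and 51.2, 83.3 and 125 in 10La. At 8L they were 84.7, 108 and 185 CPM. In the rising arm they were 33.3, 81.1 and 153 CPM in 10Lv, 73.6, 99.8 and 162 in 12Lv, 59.8, 103.02 and 189 in 14Lv, and 41.6, 78.3 and 118 in 16Lv. The mean was highest in 16La (143 ± 89.6 CPM) and lowest in 12La (78.5 ± 51.2; SD, n = 6 each), and all groups overlapped. At 12 h of light the rising arm lay above the declining arm by a log2 difference of 0.82 (SE 0.43, limma unadjusted p = 0.0656, adjusted p = 0.968), and 0.49 without 12La replicate 4.

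**Figure D2:**
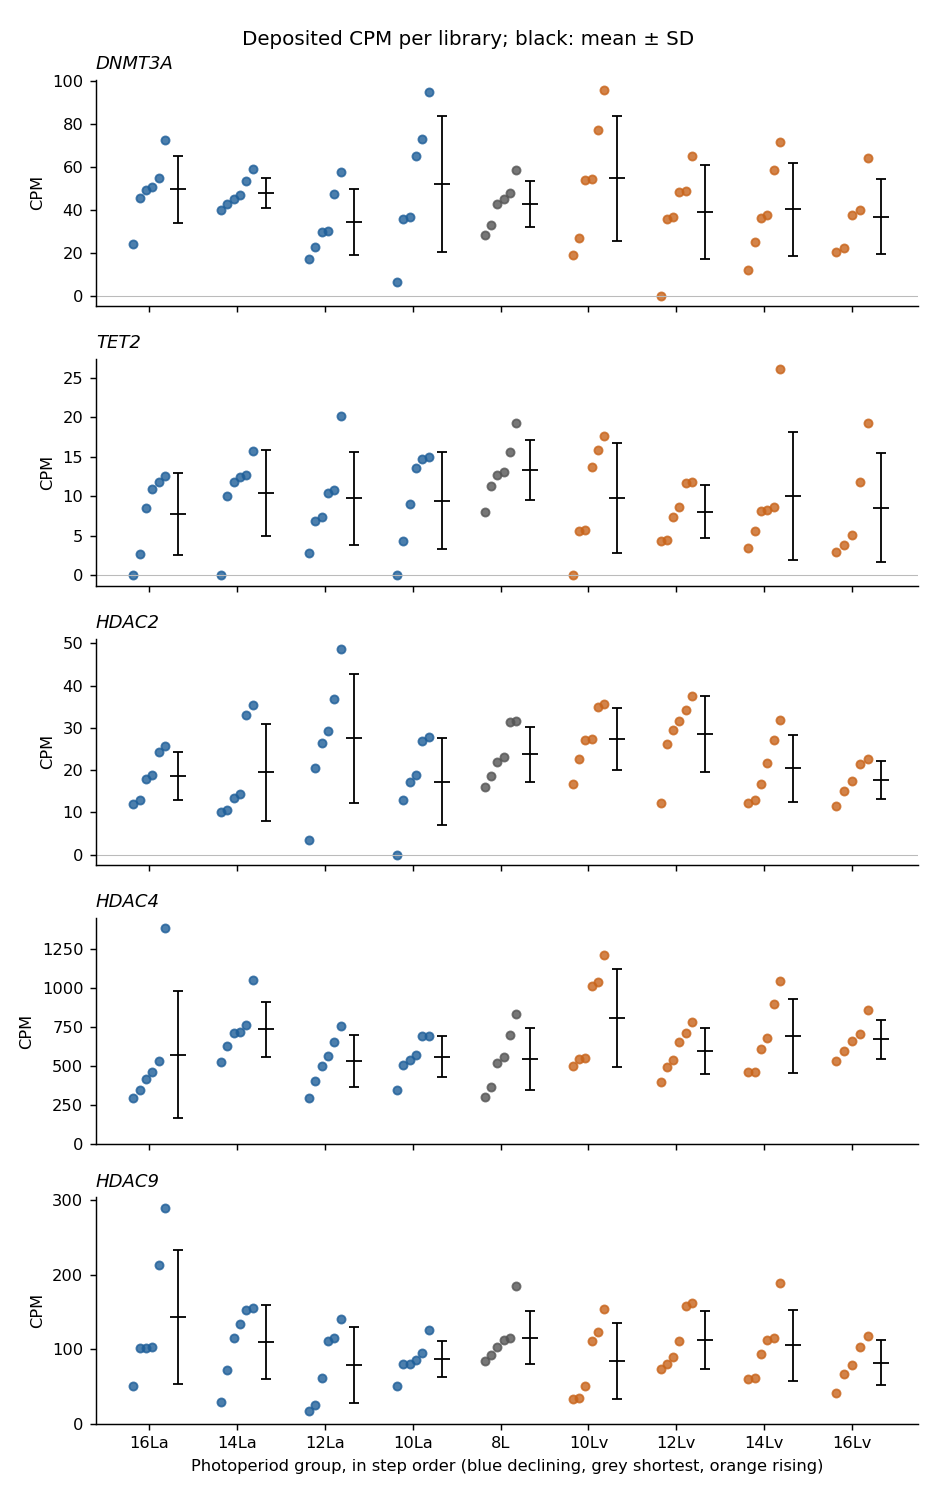
CPM of DNMT3A, TET2, HDAC2, HDAC4 and HDAC9 in each library (points), with group mean and SD (black), for the 9 photoperiod groups in step order, on linear axes that differ between panels. The points of all 9 groups overlap in every panel, and HDAC4 in 16La has 1 library at 1387 CPM above 5 between 298 and 535.

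When the 9 groups were put in order of their mean, no neighbours in that order differed by more than the smaller of their SDs for DNMT3A, TET2, TET3, HDAC2, HDAC3, HDAC4 or HDAC9. For DNMT1 this happened once, between 10Lv (4.15 ± 3.29 CPM) and 14Lv (2.07 ± 1.35; SD, n = 6 each), where the libraries overlapped. For DNMT3B it happened once as well, and only because most groups had no read. Ordering groups by their mean makes neighbours close by construction, and the share over all genes was not counted. These gaps therefore do not tell whether groups differed. Of the 36 pairs of groups, none had ranges apart for any of the 5 tested members. Over all tested genes, 0.246% of pairs had ranges apart.

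The test for any difference among the 9 groups called none of the 5 members by limma, where 0.0363% of the 8268 genes were called. None of the 5 had an unadjusted p under 0.05 there, against 3.8% of all genes, and HDAC4 had the smallest (limma unadjusted p = 0.191, adjusted p = 0.998). The same reads tested with limma-voom, edgeR and DESeq2 also called no member, with 0.0121%, 0.0605% and 0.181% of all genes called. Of the variance between libraries, the share that lay between groups was 20.4% for HDAC4, 17.1% for HDAC9, 15.8% for HDAC2, 8.86% for DNMT3A and 7.33% for TET2. Over all tested genes its median was 14.1%, with quartiles of 10.1% and 18.9%.

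Comparisons of single groups and of the arms gave the same count. Limma called no member in 8L minus 16La or in 16Lv minus 8L, where 0.0% of all genes were called in each, and none in 16Lv minus 16La, where 0.0242% were. No member was called in rising minus declining at 10, 12 and 14 h together or at 10 h (0.0121% of all genes each), or at 12 h or 14 h (0.0% each). No member was called for its slope on hours of light or for a difference in slope between the arms (0.0% each). The slopes within the declining arm (0.0121%) and the rising arm (0.0%) called none either. Among the 8 steps no member was called, with 0.0121% of all genes called in 12La minus 14La, 10La minus 12La and 16Lv minus 14Lv, and 0.0% in the other 5.

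Over the 20 comparisons and 5 tested members, 2 of 100 values had an unadjusted p under 0.05, or 2.0%, against 4.61% for all tested genes (3.5% to 6.01% in a single comparison). Without the 9 shallow libraries it was 7 of 100 values, or 7.0%, against 4.98%, so the share of the members depends on those libraries. The 20 comparisons are built from the same 9 group means, so the 100 values are not independent. Neither share is read as a departure from that of all tested genes. With all libraries the 2 were HDAC2 in 10Lv minus 10La and HDAC4 in 14La minus 16La, given above. In those 2 comparisons 4.89% and 3.5% of all genes had such a p. A p that misses the threshold does not show that levels were equal, and the intervals state what was measured. The median half-width of the 95% interval of a difference between groups was 0.54 on the log2 scale for HDAC4, 0.87 for HDAC9, 1.00 for HDAC2, 1.17 for DNMT3A and 1.32 for TET2. Only for HDAC4 did most intervals, all but 4 of 15, stay within a log2 difference of 1 either way.

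The direction differed between members. For 8L minus 16La the log2 difference was above 0 for TET2 (1.10), HDAC2 (0.36) and HDAC4 (0.08) and below 0 for DNMT3A (-0.16) and HDAC9 (-0.11). The median of the 5 was 0.08, beside 0.02 over all tested genes. For 16Lv minus 8L it was above 0 for HDAC4 alone (0.43, or 0.27 without 8L replicate 3, a shallow library, and 0.24 without all 9), and the median was -0.34 beside -0.04 for all tested genes. These comparisons share the 8L libraries. For rising minus declining at 10, 12 and 14 h, HDAC2 had the smallest p, with a log2 difference of 0.54 (SE 0.29, limma unadjusted p = 0.0682, adjusted p = 0.996). It was 0.30 without 10La replicate 1, the library with no HDAC2 read. TET2 was at -0.01 (SE 0.38) in the same comparison.

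Leaving out all 9 shallow libraries, a comparison chosen after seeing the data, left 4 or 5 libraries in each group and again called no member (smallest limma adjusted p = 0.625). Among the 9 groups 0.0632% of all genes were called without them. Several values moved: TET2 in rising minus declining was -0.60 (SE 0.30, limma unadjusted p = 0.0494, adjusted p = 0.870) in place of -0.01, and 0.68 in place of 1.10 in 8L minus 16La. HDAC4 was at 0.29 in 16Lv minus 16La, in place of 0.51. DNMT3A went to 0.23 in 12Lv minus 10Lv and to -0.43 in 8L minus 16La. HDAC2 in 10La minus 12La had the smallest p, with a log2 difference of -1.62 (SE 0.49, limma unadjusted p = 0.00216, adjusted p = 0.625), beside -0.93 with all libraries. It still includes 10La replicate 1, at 0 CPM.

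**Figure D3:**
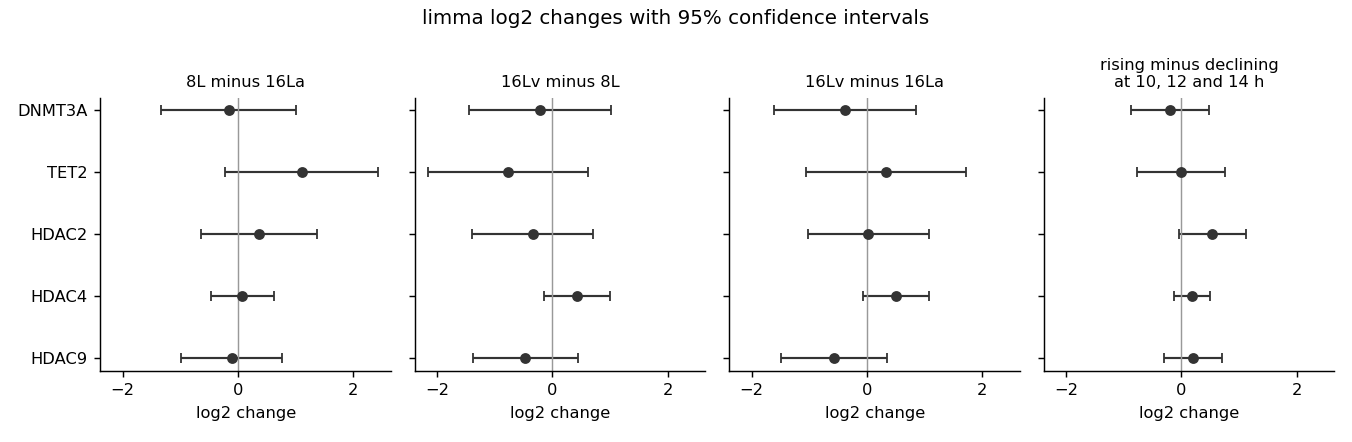
Log2 differences from limma (points) with 95% confidence intervals (bars) for the 5 tested genes in 4 comparisons, on a shared axis where 0 is no difference. Every interval reaches across 0, HDAC4 has the narrowest and TET2 the widest.

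The spread within a group holds both differences between separate birds and the error of counting reads, which is given beside it as the Poisson value at the depths of that group's own libraries. The median coefficient of variation within a group was 31.5% for HDAC4, beside a median of 4.81% from counting. For HDAC9 it was 45.2% beside 11.4%, and for DNMT3A 47.3% beside 17.1%. TET2 varied by 65.5% beside 39.8% from counting, and HDAC2 by 31.2% beside 24.6%.

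Across the 53 libraries the 5 tested genes varied mostly apart from each other. Of 10 pairs, TET2 and HDAC9 had the highest correlation (Pearson r = 0.388, permutation test adjusted p = 0.0481; Spearman rho = 0.277, adjusted p = 0.233). Pearson r was 0.204 without 2 libraries that had no TET2 read, so it rests in part on such libraries. In all, 4 libraries had no TET2 read and lay equally far from its median, so which 2 were left out was arbitrary. The other 9 pairs had Pearson r between -0.193 and 0.205, and none passed (permutation test adjusted p of at least 0.406). Library depth moved with TET2 (r = 0.370 with log2 reads, permutation adjusted p = 0.0341 over 5 genes, and rho = 0.169, permutation adjusted p = 0.283). Without the 2 libraries farthest from the median depth, r was 0.246. The part of depth in the TET2 values beyond the values without the 9 shallow libraries was not tested. DNMT3A had the highest rank correlation with depth (rho = 0.325, permutation adjusted p = 0.0911; r = 0.288, adjusted p = 0.0984; r = 0.281 without 2 libraries), which did not pass. HDAC4 had r = 0.04 with depth (permutation adjusted p = 0.797).

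The genes most like each tested member over the 53 libraries were found by Pearson r among all 8268. For DNMT3A they were MASP2, a complement protease (r = 0.711), the diacylglycerol kinase DGKH (0.665) and NELL1 (0.642). For TET2 they were SAMD11 (0.652), the transcription factor EBF1 (0.580) and the nucleotidase NT5C1A (0.568). For HDAC2 they were COBLL1 (0.634), the fucosyltransferase FUT8 (0.624) and the oxysterol receptor NR1H3 (0.594). HDAC4 had the weakest likeness, with KANK1 (0.510), the anaphase-promoting complex subunit ANAPC4 (0.485) and ZNF212 (0.483). For HDAC9 they were the mRNA capping enzyme RNGTT (0.545), WBP1L (0.529) and the kinesin motor KIF3B (0.524). These values are the highest of all genes searched and describe these libraries only.

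Other genes of the same pathways were counted from 8 lists of 119 genes, of which 104 were in the table and 68 met the filter. None was called in any of the 20 comparisons (smallest limma adjusted p = 0.433), and 1 of 68 had an unadjusted p under 0.05 in the test among the 9 groups, against the 3.8% given above. That gene was UHRF2, a reader of hemimethylated DNA (limma unadjusted p = 0.0202, adjusted p = 0.998). Its group means ran from 3.53 ± 3.46 CPM in 14Lv to 15.1 ± 8.81 in 10Lv, with 14La at 14.1 ± 6.84 and 12La at 4.75 ± 4.40 (SD, n = 6 each). ZBTB33 and MBD4, both proteins that bind methylated DNA, had 256 and 197 reads and limma p-values of 0.158 and 0.349 among the groups.

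Among genes that act on 5-methylcytosine after it is made, 3 of 11 in the table met the filter. These were TET1, with 1908 reads (39.8 ± 21.5 CPM), IDH1, which makes the 2-oxoglutarate that TET enzymes use (61.8 ± 22.3), and OGT, a glycosyltransferase that binds TET proteins (61.4 ± 15.4; SD, n = 53 each). Their smallest p among the groups was 0.247 for IDH1 (limma, unadjusted). In the methyl donor list, 5 of 11 met the filter and AHCYL1, related to the hydrolase of S-adenosylhomocysteine, had the smallest p (0.0508, limma, unadjusted; adjusted p = 0.998). AHCYL1 was lowest in 12La (86.6 ± 67.5 CPM; SD, n = 6) and highest in 16Lv (212 ± 130.2; SD, n = 5), with 16La at 196 ± 82.4 and 8L at 111 ± 69.9 (SD, n = 6 each). MAT2B and AHCYL2 followed with limma p-values of 0.412 and 0.612.

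Of the other zinc-dependent deacetylases, HDAC1, HDAC8 and HDAC11 were tested. HDAC1, the closest relative of HDAC2, averaged 12.1 ± 4.56 CPM (SD, n = 53), with a log2 difference of -0.74 for 16Lv minus 16La (SE 0.29, limma unadjusted p = 0.0146, adjusted p = 0.747). All 7 sirtuins, the NAD-dependent deacetylases, were in the table and 5 were tested, with SIRT5, SIRT4 and SIRT6 lowest in p (0.170, 0.359 and 0.417 among the groups, limma). Of 26 partners of deacetylase complexes 18 were tested, led by SIN3A, a scaffold of the HDAC1 and HDAC2 complex (limma unadjusted p of 0.104), NCOR1, the corepressor that binds HDAC3 (0.189), and ARID4A (0.235). In 16Lv minus 16La the log2 difference was below 0 for 14 of these 18, with a median of -0.22 beside -0.02 over all tested genes. In that comparison 3 of the 18 had an unadjusted p under 0.05 by limma, against 6.01% of all tested genes, and none was called.

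Of 19 genes that class IIa deacetylases act through or that send them out of the nucleus, 17 were tested. The kinases PRKD1, SIK3 and PRKD3, which phosphorylate class IIa enzymes, had the smallest p among the groups (0.144, 0.187 and 0.242, limma). Histone acetyltransferases, which oppose the deacetylases, had 9 of 13 tested, led by KAT6A (limma unadjusted p of 0.119), CLOCK, also a circadian transcription factor (0.158), and HAT1 (0.412). For 8L minus 16La the log2 difference was below 0 in 7 of these 9, with a median of -0.14 beside 0.02 over all tested genes. For 16Lv minus 16La it was below 0 in 6 of 9, with a median of -0.43 beside -0.02, and none was called in either. Both comparisons share the 16La libraries, so their signs are not independent.

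A second deposited table, of estimated counts per transcript, gave a shallower reading, with 4834 to 156500 counts per library. Its columns were matched to birds by the running numbers in the titles. It was not evenly shallower. The library with the most counts, 12La replicate 3, held 292120 reads in the CPM table. The library with the most reads, 12La replicate 5 (1895615), held 15174 counts. DNMT1 is not listed in the count table. Transcripts of 1 gene often repeat the same counts there: the 10 transcripts of HDAC4 summed to 1267, while the transcript with the most counts in each library gave 136, and in 19 libraries all 10 held the same value. Taken by highest transcript, HDAC2 had 98 counts, HDAC9 50, TET2 32, DNMT3A 30, HDAC3 15, TET3 9 and DNMT3B 1. Reads in the CPM table per such count ran from 2.0 for DNMT3B and 5.33 for HDAC3 to 101.02 for HDAC9 and 222 for HDAC4, so the tables do not weigh the 9 genes alike.

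**Figure D4:**
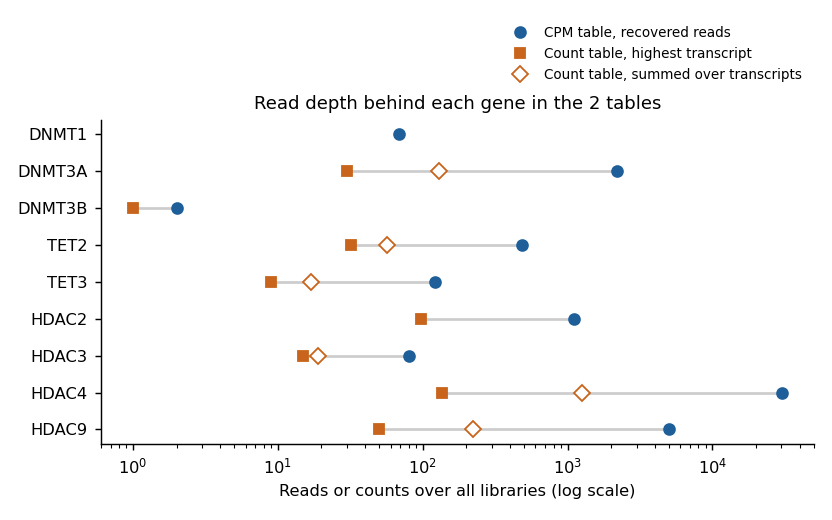
Reads or counts behind each gene over all libraries on a log axis: reads recovered from the CPM table (circles), and counts of the count table by highest transcript (squares) or summed over transcripts (diamonds, for genes with more than 1 transcript). HDAC4 spans 136 counts to 30241 reads, and DNMT1 has a circle only.

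In the count table HDAC4 alone met the expression filter, on counts summed over its transcripts. It was not called in the edgeR test among the 9 groups (unadjusted p = 0.926, adjusted p = 1.00), where 0.484% of 826 genes were called and 4.48% had an unadjusted p under 0.05. It was not called in rising minus declining at 10, 12 and 14 h either, where 0.121% were. With no filter edgeR called DNMT3A (adjusted p = 0.000182) and TET3 (adjusted p = 0.0147), in a fit where 8.81% of 16442 genes were called. Neither was called with no filter when each gene was taken by its highest transcript (edgeR adjusted p = 0.494 for DNMT3A and 0.774 for TET3), where 0.298% of 16436 genes were called.

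By highest transcript, DNMT3A had 19 counts in 10 of 18 libraries at 14, 12 and 10 h of the declining arm and 3 counts in 3 of 18 libraries at the same day lengths of the rising arm. The libraries of those arms held 1178419 and 628256 counts in all. With counts summed over its 7 transcripts and no filter, the log2 difference of rising minus declining was -3.45 (SE 0.73, edgeR adjusted p = 0.00185), in a fit where 1.02% of all genes were called. By highest transcript with no filter it was -1.73 (SE 0.65, edgeR unadjusted p = 0.00825, adjusted p = 0.475), where 0.00608% of all genes were called and 8.72% had an unadjusted p under 0.05. In the CPM table, columns with the same running numbers had 782 DNMT3A reads of 16916990 in the declining arm and 680 of 15421647 in the rising arm. The log2 difference there was -0.19 (SE 0.34, limma adjusted p = 0.996), or 0.12 without 12Lv replicate 3. TET3 had 3 counts in 1 declining library and 5 counts in 5 rising libraries of the count table, and 43 and 33 reads in the CPM table.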

How the data were processed

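Per the labels' protocols, polyadenylated RNA was turned into barcoded cDNA with a direct Nanopore kit. Tools listed in the submitters' processing notes are Salmon 0.14.2, minimap2 2.17 and edgeR 3.24.3, with no role or genome build stated. The authors deposited a table of CPM per gene and a table of estimated counts per transcript (40282 transcripts, 16448 genes). Of the CPM table's values, 99.7% to 100% per library were whole multiples of 1 read within 0.1 read, which returned the reads. Left out were 14 names turned into dates (0.0699% of CPM). The quail RefSeq table (Coturnix japonica 2.1) holds 58.3% of the names and 8 of the 9 members. DNMT1 is not among them and was taken by its name alone.

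Limma 3.58.1 was run on log2(TMM-scaled CPM + 1) in 1 fit of 9 group means, without covariates, for genes of at least 10 CPM in at least 6 libraries. The alike columns of 16Lv, replicates 3 and 6 (chi-square per degree of freedom 0.953, next pair within a group 6.25 of 135) were averaged. A pseudocount of 1 draws low levels together on the log2 scale, but a library at 0 still weighs heavily on a mean of log2 values. The log2 differences of low genes can therefore understate or overstate the change. For TET2 in 8L minus 16La the difference was 1.10, and 0.57 without 16La replicate 2, at 0 CPM. Levels in CPM are of the library total. Estimated counts were summed per gene, rounded and tested with edgeR 4.0.16 (quasi-likelihood, filterByExpr with a minimum count of 10) over 54 libraries. Replicates 3 and 6 of 16Lv, with 12131 and 50923 counts there, thus entered the count tests as 2 libraries. Whether they are alike in that table was not tested. Limma and edgeR fits were also run on simulated data. The changes there were larger than any of the tested members in the CPM table, and no gene as low as TET2 was changed. Those runs therefore do not show how differences of the reported size would be recovered. Correlations used 100000 permutations. R 4.3.3, DESeq2 1.42.0, numpy 2.4.6, scipy 1.17.1 and pandas 2.3.3 were used.

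Members and lists were chosen with earlier results of these data known. Named are all 9 members, the 3 genes of each list with the smallest p among the groups where none was called, and the 3 genes most like each tested member. Alternatives were other pseudocounts, scalings, filters and count tests, all 54 columns kept apart, fits of the compared groups only, libraries left out, and those added after seeing the data (without 9 shallow libraries, a replicate block, and the highest transcript per gene). No coordinates or sequences are given.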

Additional observations from a re-analysis of the deposited data

Results flagged for a closer look

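For the 5 genes with enough reads to test, 4 of 45 groups of libraries held a value far from the rest, where chance gives about 1 in 20 for continuous values. The most deeply read was HDAC4 in 16La replicate 1, at 1387 CPM from 1399 reads, where the other 5 libraries averaged 412 ± 93.6 CPM (SD). HDAC9 in 8L replicate 2 was at 185 CPM from 164 reads, beside 84.7 to 116 CPM in the other 5. TET2 was at 26.03 CPM in 14Lv replicate 3, which is 8 reads of 307307, beside 3.50 to 8.68 in the others. TET2 was at 0 CPM in 14La replicate 3, a library of 379260 reads, beside 10.0 to 15.7 in the others.

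For the other genes 5 of 29 groups did, each on 1 to 5 reads. In 3 of these all other libraries were at 0, so that any read stands apart by construction and the chance rate does not apply. DNMT1 was at 5.61 CPM in 12La replicate 6 (5 reads), beside 0 to 1.89. HDAC3 was at 2.66 CPM in 16La replicate 6 (3 reads), beside 0 to 0.992, and at 2.24 in 14La replicate 5 (4 reads), beside 0. DNMT3B was at 0.559 CPM in 14La replicate 5 and 0.777 in 8L replicate 6, from 1 read each, beside 0.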

How the results depend on the processing

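No member was called in the CPM table under any of 13 alternatives or with any of 53 libraries left out (smallest adjusted p over these settings = 0.601, of limma, limma-voom, edgeR and DESeq2). In the count table the number called was 2 with no filter (DNMT3A and TET3) against 0 with it. By highest transcript with no filter, an alternative chosen after seeing the data, it was 0. DESeq2 and the fits with any library left out also called 0, but used the filter, which HDAC4 alone met with all libraries. The DESeq2 fit thus could not have called DNMT3A or TET3, and no fit without a filter left a library out. By highest transcript with the filter no member could be fitted. Of 476 log2 values 20 changed sign, in 6 results. HDAC4 in 8L minus 16La was -0.040 with edgeR, -0.036 with DESeq2 and -0.088 without the 6 shallowest libraries. HDAC2 in 16Lv minus 16La was -0.059 without TMM, -0.0090 with a minimum of 1 CPM, -0.043 with limma-voom, -0.0071 with edgeR, -0.015 with DESeq2, -0.020 with all 54 libraries, -0.019 without the 6 shallowest and -0.020 without the 9 under 400000 reads. Without those 9, HDAC9 in rising minus declining was -0.072 and DNMT3A in 12Lv minus 10Lv was 0.23. TET2 in rising minus declining was 0.078 with a pseudocount of 0.25 and 0.0047 with a minimum of 1 CPM. The DNMT3A slope was -0.00031 with a pseudocount of 5, -0.0047 without TMM, -0.011 with edgeR and -0.013 with DESeq2. The cause was not tested.

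With 1 library left out, 56 of 1961 log2 values changed sign, in 10 results. In 8L minus 16La, HDAC4 ran from -0.086 to 0.35 and HDAC9 from -0.35 to 0.15. In 16Lv minus 16La, TET2 ran from -0.21 to 0.54 and HDAC2 from -0.13 to 0.13. In rising minus declining, DNMT3A ran from -0.34 to 0.12 and TET2 from -0.22 to 0.19. DNMT3A in 12Lv minus 10Lv ran from -1.17 to 0.041. The DNMT3A slope ran from -0.016 to 0.015, and the difference in slope between arms from -0.022 to 0.15 for TET2 and from -0.030 to 0.035 for HDAC4.

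The labels give no replicate numbers shared between groups, only running numbers in the titles. A replicate block by the order of these numbers within each group, with all 54 libraries and chosen after seeing the data, called no member (smallest limma adjusted p = 0.753), and HDAC2 in 16Lv minus 16La was -0.020. Deviations of libraries at the same place in that order correlated with a median r of 0.027 (2 of 216 pairs above 0.1). At other places the median was -0.0046. The shallow library held the same place in 8 groups and another place in 16La, so the block does not line up 16La by depth. Among the 9 groups, 423 of 8298 genes had a limma unadjusted p under 0.05 with the block. Without it, with all 54 libraries, 350 did, and 3 genes were called either way. Libraries were not taken as pairs, and whether those at the same place shared handling was not tested. Depth limits DNMT1, DNMT3B, TET3 and HDAC3, with a median of 0 to 2 reads per library. Reads are not shown to be distinct molecules, so intervals cover counting error only.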
